A study of Homo sapiens with 8 samples.

Results

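Cyclin-dependent kinase (CDK) inhibitors, D-type cyclins and their kinase partners set the gate between G1 and S phase, and they are described here across the 8 libraries of a study of the methyltransferase METTL13. The set names 10 genes, and 9 of the 14668 genes in the count table belong to it: CDKN1A, CDKN1B, CDKN2B, CDKN2C, CDKN2D, CCND1, CCND3, CDK4 and CDK6. CDKN1C was not analysed here. The genes were chosen by symbol, with earlier footprint results of these same libraries known, including those of CDKN1A and CCND1. The footprint values of the set, and the footprints per mRNA built from them, are therefore given as a description, with whether each gene met the threshold of the fit over all genes but without its p-value, and they support no statement about the set.

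The study set T3M4 cells with a METTL13 guide (sgMETTL13) against T3M4 cells with a control guide (sgControl). T3M4 cells are an established line from a human pancreatic cancer, and METTL13 methylates the translation elongation factor eEF1A. Both kinds of cell were starved of serum for 18 h and then received 10% FBS for 2 h. Each arm was measured by poly(A) RNA-seq, which gives mRNA abundance, and by ribosome profiling, which counts the mRNA fragments protected by ribosomes (footprints), with 2 libraries in each of the 4 groups. The labels state neither whether the replicates were separate cultures nor whether the cells were clones or pools, and the p-values reflect library spread alone, which may be technical. The labels do not state how many guides were used against METTL13.

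D cyclins bind CDK4 or CDK6 when growth factors are present, and the active kinases phosphorylate RB and release the E2F transcription factors. INK4 inhibitors, encoded by CDKN2B (p15), CDKN2C (p18) and CDKN2D (p19), bind CDK4 and CDK6 and keep D cyclins away. CIP/KIP inhibitors, encoded by CDKN1A (p21) and CDKN1B (p27), bind cyclin-CDK complexes, inhibit CDK2, and also help D cyclins assemble with CDK4 and CDK6. Serum raises cyclin D1, and in pancreatic cancer the INK4 locus is often lost.

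On GRCh38.p14, RefSeq places CDKN1A at chr6:36676463-36687332, CDKN2B at chr9:22002903-22009313, CCND1 at chr11:69641156-69654474 and CCND3 at chr6:41934933-42050035. CDKN1A overlaps the non-coding gene DINOL and CDKN2B the non-coding gene CDKN2B-AS1, and since the strand setting of the counting is not given, reads of such neighbours cannot be told apart. Which parts of a gene were counted is not given in the sources used here.

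Library totals ran from 6063885 to 9837253 counts in footprints and from 20860953 to 48353722 in mRNA. The targeted gene METTL13 read 20.1 and 26.2 footprint CPM (counts scaled to a common library size with TMM factors) in sgMETTL13 and 65.1 and 57.7 CPM in sgControl (log2 fold change -1.41, SE 0.164, edgeR adjusted p = 6.38e-07). Its mRNA read 25.2 and 35.05 CPM in sgMETTL13 and 89.7 and 71.4 CPM in sgControl (log2 fold change -1.42, SE 0.406), with arms apart but an edgeR adjusted p of 1.00. All 7 epithelial and ductal markers were measured in mRNA and summed to between 2872 and 4188 CPM in sgMETTL13 and between 3625 and 4165 CPM in sgControl. The 5 fibroblast markers in the table summed to at most 32.9 CPM in either arm, the 3 leukocyte markers to at most 32.3 CPM in sgMETTL13 and 49.3 CPM in sgControl, and the 4 endothelial markers, 1 of them at 0 in all mRNA libraries, to at most 1.097 CPM in sgMETTL13 and 1.59 CPM in sgControl. The replicates of sgMETTL13 mRNA stood apart from each other: the SD over genes of their log2 difference was 0.847, against 0.365 in sgControl mRNA, 0.277 in sgMETTL13 footprints and 0.326 in sgControl footprints.

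Footprints of 2 inhibitors and 2 D cyclins were lower in sgMETTL13, while those of p27 and of both kinases did not meet the threshold. CDKN1A and CDKN2B footprints fell to 40.8% and 36.9% of their sgControl level, and CCND1 and CCND3 footprints to 61.1% and 58.5%. No member was called higher. Over all genes tested in footprints 21.0% were called, and 12.0% were called lower. A fit of all 8 libraries called no gene in footprints. None of the 9 met the threshold in mRNA, where 0% of all genes were called. In a bulk lysate, fewer footprints per cell and fewer cells carrying them cannot be told apart.

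**Figure D1:**
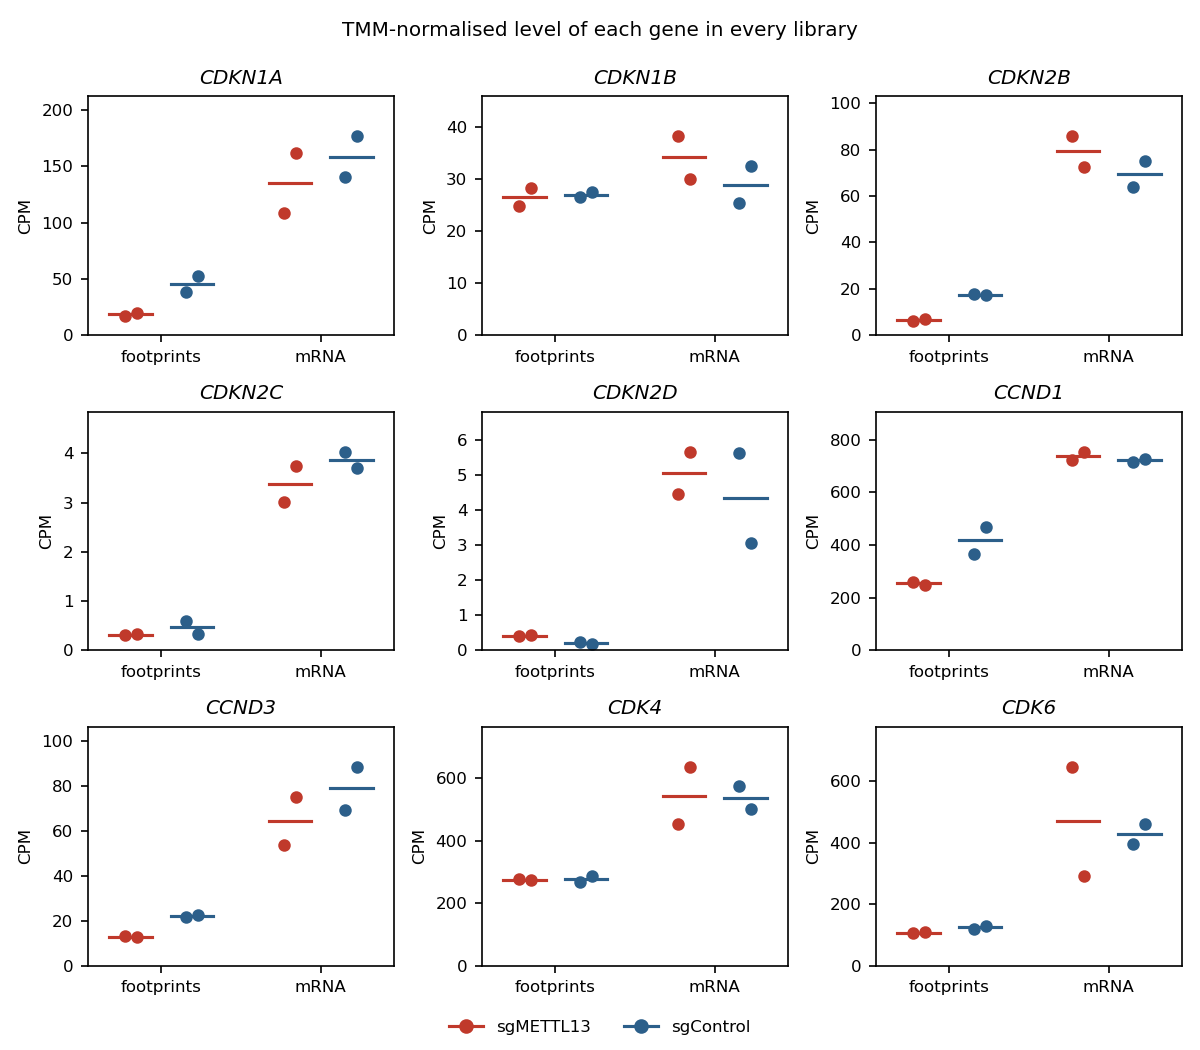
TMM-normalised CPM (linear axis from 0) of the 9 genes in footprint and mRNA libraries, sgMETTL13 in red and sgControl in blue; points are libraries (2 per group) and bars their means. Both sgMETTL13 footprint libraries lie below both sgControl libraries for CDKN1A, CDKN2B, CCND1, CCND3 and CDK6, as in 32.0% of all genes tested. On 5 or fewer counts per library, CDKN2C footprints also lie below and those of CDKN2D above. The mRNA values of all 9 genes overlap between the arms, which were apart in 12.0% of all genes tested.

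CDKN1A encodes p21, an inhibitor that is induced when cells are stressed. Its footprints read 17.3 and 19.6 CPM in sgMETTL13 and 38.6 and 52.3 CPM in sgControl, from 170 and 179 counts against 319 and 306. Both sgMETTL13 libraries lay below both sgControl libraries, and the sgControl replicates were further apart than the sgMETTL13 replicates. The log2 fold change was -1.29 (SE 0.176, 2 libraries per arm), which lies at the 0.737 percentile of the 10714 genes tested. It stayed between -1.50 and -1.07 with any 1 footprint library left out and met the threshold each time.

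CDKN2B encodes p15, an INK4 inhibitor known as a target of TGF-beta signalling. It read 6.09 and 6.80 footprint CPM in sgMETTL13 and 17.6 and 17.3 CPM in sgControl, on 60 and 62 counts against 146 and 101. The replicates of each arm lay close together and the arms did not overlap. Its log2 fold change of -1.44 (SE 0.218) was the lowest among the members tested, at the 0.448 percentile of all genes. It ranged from -1.52 to -1.36 over the 4 fits with 1 library left out, and met the threshold in each.

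CDKN1B encodes p27, whose level falls when serum moves cells out of quiescence. Its footprints read 24.9 and 28.3 CPM in sgMETTL13 and 26.5 and 27.5 CPM in sgControl. The sgMETTL13 values enclosed those of sgControl, and the log2 fold change was -0.02 (SE 0.169). The difference between the changes of CDKN1A and CDKN1B, the CIP/KIP members measured, was not tested. As a share of the footprint counts of both genes in the same library, which no scaling factor enters, CDKN1A made up 41.0% in sgMETTL13 replicate 1 (95% exact binomial interval 36.2% to 45.9%) and 41.0% in replicate 2 (36.3% to 45.7%). In sgControl that share was 59.3% in replicate 1 (55.0% to 63.5%) and 65.5% in replicate 2 (61.0% to 69.8%). Of the mRNA counts of both genes, CDKN1A made up 74.0% (72.9% to 75.0%) and 84.4% (83.5% to 85.2%) in sgMETTL13 replicates 1 and 2, and 84.8% (83.8% to 85.7%) and 84.5% (83.4% to 85.5%) in sgControl replicates 1 and 2. Both mRNA shares of sgMETTL13 were the lower ones, though replicate 2 lay within the intervals of sgControl. All binomial intervals here and for the D cyclins cover counting error only and not the spread between replicates. Since the footprints of CDKN1A and CCND1 were known when the genes were chosen, these intervals are no test between the arms.

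CDKN2C and CDKN2D, which encode the INK4 inhibitors p18 and p19, had almost no footprints and did not pass the expression filter in that assay. CDKN2C had 3 and 3 footprint counts in sgMETTL13 and 5 and 2 in sgControl. CDKN2D had 4 and 4 in sgMETTL13 and 2 and 1 in sgControl. A count of 0 allows up to 3 counts, or 0.304 to 0.512 CPM in these footprint libraries, so neither gene gives a readable footprint difference at this depth. Their mRNA was present, at 3.02 and 3.74 CPM in sgMETTL13 and 4.04 and 3.71 CPM in sgControl for CDKN2C, and at 4.48 and 5.68 CPM in sgMETTL13 and 5.65 and 3.08 CPM in sgControl for CDKN2D.

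CDKN2A, the INK4 gene next to CDKN2B, is no member and is named after its values were seen. It had 6 and 7 footprint counts in sgMETTL13 and 5 and 2 in sgControl, beside 4523 and 6157 mRNA counts in sgMETTL13 and 4495 and 2911 in sgControl. CDKN2A and CDKN2B encode ankyrin repeats of closely similar sequence, so a short footprint of either gene can match both. How reads that match several places were counted is not given in the sources used here, which leaves the CDKN2B footprint values uncertain to that extent.

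CCND1 encodes cyclin D1, the D cyclin that growth factors raise. Its footprints read 261.3 and 250.1 CPM in sgMETTL13 and 367.6 and 470.1 CPM in sgControl. These values rest on 2574 and 2281 counts in sgMETTL13 and 3042 and 2752 in sgControl. The arms did not overlap, with sgControl replicate 2 the highest. The log2 fold change was -0.71 (SE 0.130), and it ranged from -0.88 without sgControl replicate 1 to -0.53 without sgControl replicate 2, past the threshold in both.

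CCND3 encodes cyclin D3, which pairs with the same kinases. It read 13.2 and 12.6 footprint CPM in sgMETTL13 and 21.6 and 22.5 CPM in sgControl, with tight replicates and no overlap. The log2 fold change was -0.77 (SE 0.189). The gene met the threshold in 3 of the 4 fits with 1 library left out and missed it without sgMETTL13 replicate 2 (log2 fold change -0.74). RefSeq lists 2 pseudogenes named after CCND3, whose copies can share short reads.

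CCND2, which encodes the D cyclin outside the set, read 71.3 and 88.1 footprint CPM in sgMETTL13 and 81.1 and 69.9 CPM in sgControl (log2 fold change 0.07, SE 0.146, edgeR adjusted p = 0.764). CCND1 made up 75.6% (95% exact binomial interval 74.1% to 77.0%) and 71.3% (69.7% to 72.9%) of the footprint counts of the 3 D cyclin genes in sgMETTL13 replicates 1 and 2. In sgControl it made up 78.2% (76.8% to 79.4%) and 83.6% (82.3% to 84.8%). Of D cyclin mRNA counts it made up 79.2% and 78.3% in sgMETTL13 and 76.9% and 75.7% in sgControl.

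CDK4 and CDK6 encode the catalytic partners of the D cyclins. CDK4 footprints read 276.4 and 272.7 CPM in sgMETTL13 and 266.7 and 286.8 CPM in sgControl, a log2 fold change of -0.01 (SE 0.123), with the sgMETTL13 values inside the range of sgControl. CDK6 read 106.2 and 108.8 CPM in sgMETTL13 and 118.9 and 129.7 CPM in sgControl. The CDK6 arms did not overlap, but the log2 fold change of -0.21 (SE 0.133) did not meet the threshold. CDK4 overlaps TSPAN31 on the chromosome, and 1 RefSeq pseudogene carries its name.

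Of the 7 members tested in footprints 4 were past the threshold, all lower in sgMETTL13, and 2 did not pass the filter. Over all 10714 genes tested 21.0% were called, and 12.0% were called lower. In 5 of the 7 the arms were apart, each time with sgMETTL13 below, and 32.0% of all genes had both sgMETTL13 libraries below both sgControl libraries. The median log2 fold change of the 7 was -0.71, beside 0.01 over all genes. In a fit of all 8 libraries, which lets the wider spread of the mRNA libraries enter, no gene was called and none of these 4 met the threshold, at log2 fold changes of -1.30 for CDKN1A, -1.44 for CDKN2B, -0.71 for CCND1 and -0.77 for CCND3.

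**Figure D2:**
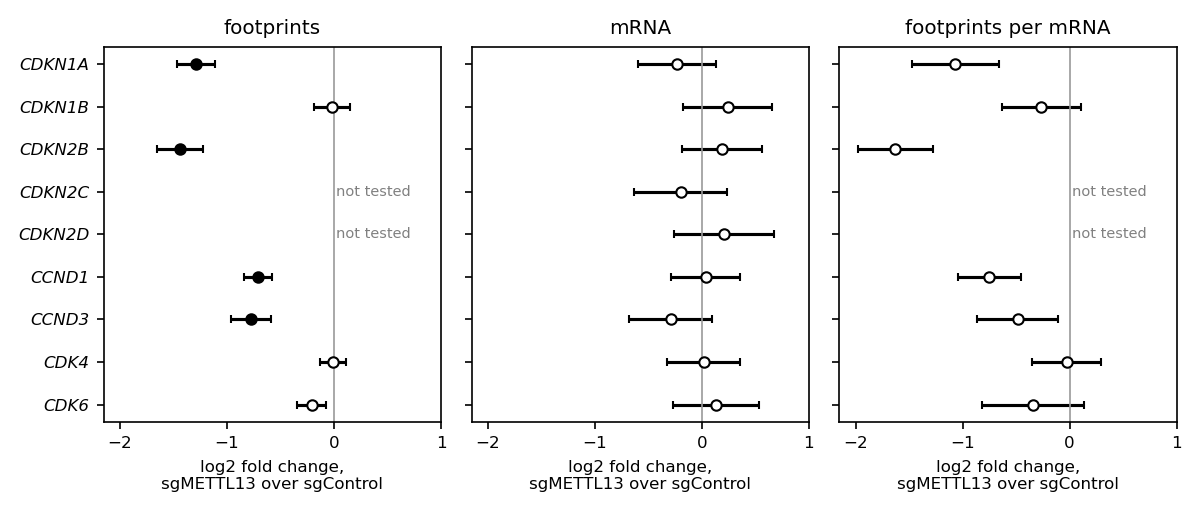
Log2 fold change of sgMETTL13 over sgControl with its standard error for each gene in footprints, mRNA and footprints per mRNA (edgeR, n = 2 libraries per arm and assay); filled points met an adjusted p below 0.05 over all genes, open points did not. CDKN1A, CDKN2B, CCND1 and CCND3 are filled in footprints, between -1.44 and -0.71, and no gene is filled in the other panels.

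The counts of each gene per 100 CDK4 counts of the same library need no scaling between libraries. CDK4 is itself a member, and its footprint log2 fold change was -0.01. The footprint ratios therefore restate the changes in CPM and are no separate support for them. CDKN1A had 6.24 and 7.197 footprints per 100 CDK4 footprints in sgMETTL13 and 14.5 and 18.2 in sgControl. CDKN2B had 2.20 and 2.49 in sgMETTL13 and 6.62 and 6.02 in sgControl. For both inhibitors the arms were well apart. CCND1 had 94.5 and 91.7 footprints per 100 CDK4 footprints in sgMETTL13 and 137.8 and 163.9 in sgControl. CCND3 had 4.77 and 4.62 in sgMETTL13 and 8.11 and 7.86 in sgControl. CDKN1B had 9.00 and 10.4 in sgMETTL13 and 9.92 and 9.59 in sgControl, the one of these ratios whose arms overlapped. How often the arms of all genes separate on this ratio was not computed, so no separation here is read as particular to its gene. The counts are not corrected for gene length, so they compare libraries and not genes.

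**Figure D3:**
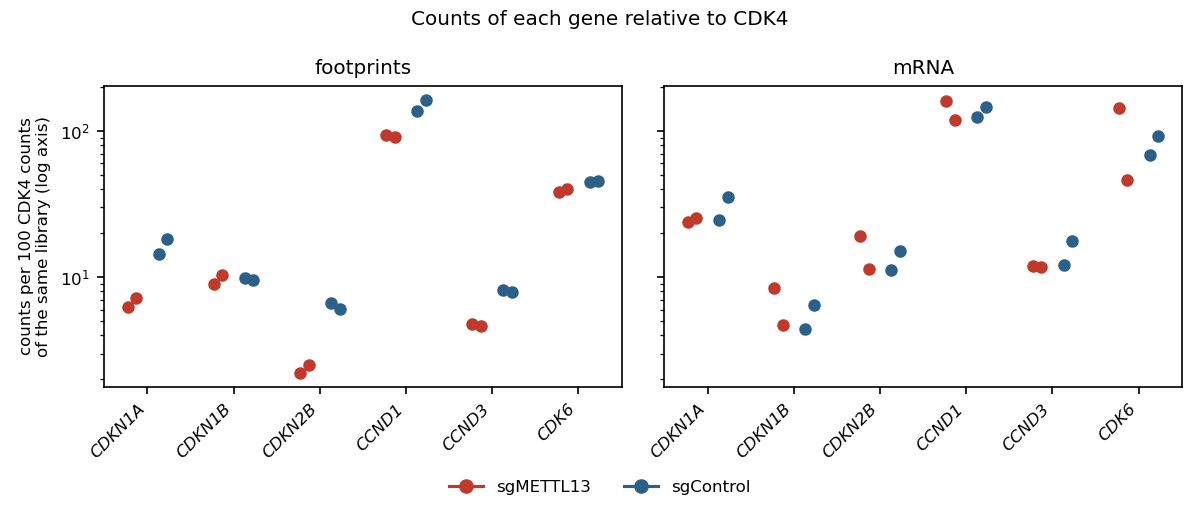
Counts of 6 genes per 100 CDK4 counts of the same library (log axis), in footprints on the left and mRNA on the right; each point is 1 library, sgMETTL13 in red and sgControl in blue. In footprints the arms separate for CDKN1A, CDKN2B, CCND1, CCND3 and CDK6 and overlap for CDKN1B. The share of all genes whose arms separate on this ratio was not computed.

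In mRNA no member passed between sgMETTL13 and sgControl. All 9 were tested, 0 passed (edgeR adjusted p of 1.00 for each), and 0 of the 9 had an unadjusted p below 0.05. Over all 12468 genes tested 0% were called by edgeR, 100 had an unadjusted p below 0.05, and DESeq2 also called 0. The arms overlapped in all 9 members, while they did not overlap in 12.0% of all genes. With the wide spread in mRNA even a large change can miss the threshold: METTL13 mRNA, at 37.4% of its sgControl level, was not called.

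CDKN1A mRNA read 108.4 and 162.0 CPM in sgMETTL13 and 140.6 and 176.7 CPM in sgControl, a log2 fold change of -0.23 (SE 0.364). CDKN2B mRNA read 85.8 and 72.8 CPM in sgMETTL13 and 63.8 and 75.3 CPM in sgControl, a log2 fold change of 0.19 (SE 0.371). This p15 mRNA value was positive and smaller than its SE. CCND1 mRNA lay close together in all libraries, at 724.7 and 755.0 CPM in sgMETTL13 and 714.8 and 727.5 CPM in sgControl, a log2 fold change of 0.04 (SE 0.323). CCND3 mRNA read 53.8 and 75.1 CPM in sgMETTL13 and 69.2 and 88.4 CPM in sgControl, a log2 fold change of -0.29 (SE 0.387).

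CDKN1B mRNA read 38.2 and 30.0 CPM in sgMETTL13 and 25.3 and 32.5 CPM in sgControl, and CDK4 mRNA 451.9 and 635.9 CPM in sgMETTL13 and 573.2 and 501.7 CPM in sgControl. CDK6 mRNA read 647.1 and 292.4 CPM in sgMETTL13 and 394.3 and 461.7 CPM in sgControl. The sgMETTL13 replicates of CDK6 lay above and below both sgControl libraries, and its log2 fold change was 0.13 (SE 0.404) with both, -0.48 without sgMETTL13 replicate 1 and 0.59 without sgMETTL13 replicate 2.

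The sequence just before the start site is shown for members whose mRNA and footprints can be set side by side and for which the RefSeq promoter sequences (GRCh38.p14) used here hold 1 start site: CDKN1A and CDKN2B, whose footprints fell, and CDKN1B and CDK4, whose footprints did not meet the threshold. The annotated span of CDKN1A begins at chr6:36676463, upstream of the whole stretch shown, so other transcripts of this gene begin elsewhere. The span of CDKN2B ends at chr9:22009313, inside the stretch shown and close to the start used. Each run holds the 100 bases before the start used, 5′ to 3′ on the gene's strand, and capitals mark GC boxes, the letters GGGCGG or their reverse complement CCGCCC, where matches may overlap.
CDKN1A, chr6:36678614-36678713, plus strand: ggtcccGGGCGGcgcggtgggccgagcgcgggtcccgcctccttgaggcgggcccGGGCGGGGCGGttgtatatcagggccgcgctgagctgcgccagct
CDKN2B, chr9:22009306-22009405, minus strand: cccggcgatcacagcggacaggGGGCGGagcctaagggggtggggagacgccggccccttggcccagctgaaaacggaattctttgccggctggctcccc
CDKN1B, chr12:12717268-12717367, plus strand: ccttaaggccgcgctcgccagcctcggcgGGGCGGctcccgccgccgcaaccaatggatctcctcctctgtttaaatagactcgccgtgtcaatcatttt
CDK4, chr12:57752311-57752410, minus strand: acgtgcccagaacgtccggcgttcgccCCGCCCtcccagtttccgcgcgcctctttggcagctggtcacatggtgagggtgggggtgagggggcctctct

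CDKN1A held 3 matches and each of the other shown stretches held 1. At least 1 match was found in 31.3% of all 35116 RefSeq windows of that length. Those windows were not limited to genes in the count table, so this share is no background for expressed genes. A match is a string of letters and no evidence of binding, and the mRNA of these 4 genes did not pass the test between the arms.

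Footprints per mRNA, often called translational efficiency, were tested as the interaction of assay and arm over all 8 libraries. No member passed among the 7 tested, and 0% of all 10446 genes were called by edgeR, with 352 at an unadjusted p below 0.05 and 2 called by DESeq2. CDKN2B had the lowest log2 change of the members, -1.63 (SE 0.349), followed by CDKN1A at -1.07 (SE 0.407), CCND1 at -0.75 (SE 0.291) and CCND3 at -0.49 (SE 0.378). CDK6 was at -0.34 (SE 0.478), CDKN1B at -0.26 (SE 0.372) and CDK4 at -0.03 (SE 0.323). The median over the 7 was -0.49, beside -0.13 over all genes.

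As plain ratios of mean CPM, CDKN1A had 0.136 footprint CPM per mRNA CPM in sgMETTL13 and 0.286 in sgControl, and CDKN2B had 0.0813 in sgMETTL13 and 0.251 in sgControl. CCND1 had 0.346 in sgMETTL13 and 0.581 in sgControl, and CCND3 had 0.200 in sgMETTL13 and 0.280 in sgControl. CDK4 had 0.505 in sgMETTL13 and 0.515 in sgControl. Each ratio is read only between arms, since the coding share of a transcript differs between genes. Which members met the threshold changed with the sgMETTL13 mRNA replicates. Without replicate 1, CDKN1A (log2 change -1.39) and CDKN2B (-1.57) met it, among 453 genes in all, and without replicate 2, CDKN2B (-1.74) and CDK6 (-0.80) met it, among 1471 genes. These values contain the footprints known when the genes were chosen and are no test of the set.

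**Figure D4:**
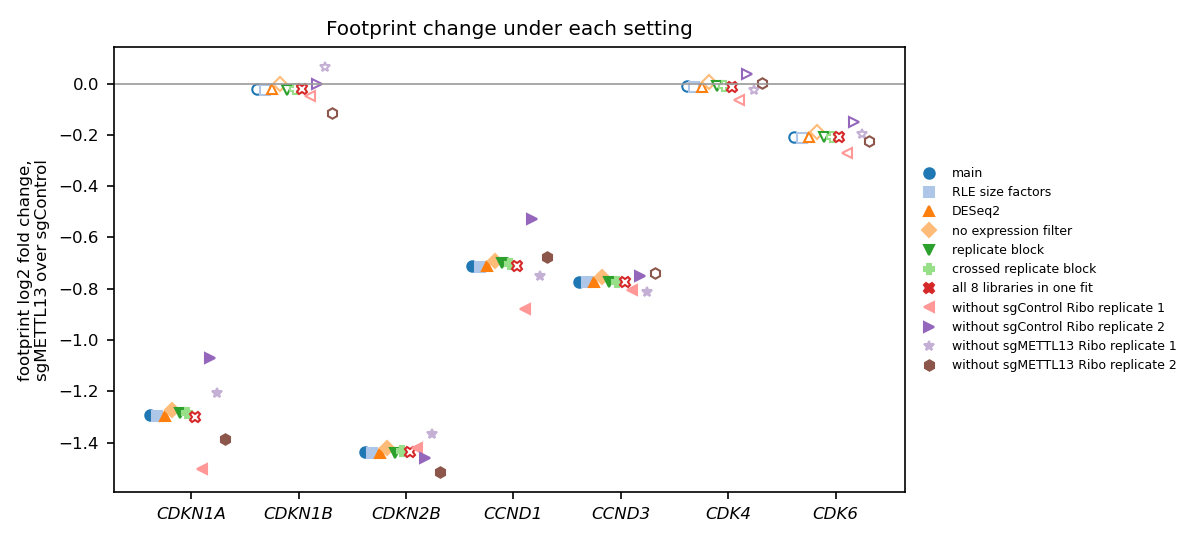
Footprint log2 fold change of sgMETTL13 over sgControl for the 7 members tested, as fitted (main) and under each other setting (legend); filled points met an adjusted p below 0.05 over all genes and open points did not. CDKN1A, CDKN2B, CCND1 and CCND3 stay between -1.52 and -0.53 under every setting drawn, and the open points among these 4 genes are the fit of all 8 libraries and, for CCND3, the fit without sgMETTL13 replicate 2.

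Genes that act with or on the set are given as 7 lists, in none of which a gene passed in mRNA. Their footprint counts stand beside 21.0% of all genes called and 12.0% called lower, and no count is read as particular to its list. Among 6 other G1 and S phase cyclins and kinases tested, 1 rose and 1 fell. CDK2, the kinase of cyclins E and A and the main target of p21 and p27, read 114.2 and 97.2 CPM in sgMETTL13 and 148.2 and 185.0 CPM in sgControl (log2 fold change -0.65, SE 0.140, edgeR adjusted p = 0.00143). CCNA2, which encodes cyclin A2, read 60.8 and 65.9 CPM in sgMETTL13 and 52.8 and 35.4 CPM in sgControl, a log2 fold change of 0.51 (SE 0.164, adjusted p = 0.0258). Without sgMETTL13 replicate 2 both lost their calls, and without sgControl replicate 2 CCNA2 did. The median of the 6 was 0.05.

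Of 11 RB family, E2F and DP genes tested, 0 rose and 2 fell (21.0% of all genes were called), with a median log2 fold change of 0.04. E2F2, an activating E2F, read 1.22 and 1.54 CPM in sgMETTL13 and 3.75 and 3.07 CPM in sgControl, and TFDP2, a DP partner of the E2F factors, had a log2 fold change of -0.52 (SE 0.178). Among 16 E2F target replication genes 1 rose and 1 fell, a smaller part than the 21.0% of all genes, with a median of 0.07. PCNA, the sliding clamp that p21 also binds, changed by a log2 value of 0.59 (SE 0.149, edgeR adjusted p = 0.00528), and the helicase subunit gene MCM2 one of -0.37 (SE 0.122, adjusted p = 0.0279). PCNA mRNA read 233.1 and 134.9 CPM in sgMETTL13 and 123.1 and 108.6 CPM in sgControl, without passing. Each of these 4 genes lost its call in at least 2 of the 4 fits with 1 footprint library left out, and without sgMETTL13 replicate 2 no gene of either list was called.

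Of 8 genes of the CDK activating kinase, the CDC25 phosphatases and the inhibitory CDK kinases, 2 rose and 3 fell, with a median of -0.10. Over all genes 21.0% were called. MNAT1 and CCNH, subunits of the CDK activating kinase beside CDK7, had log2 fold changes of 0.50 (SE 0.141, edgeR adjusted p = 0.0113) and 0.53 (SE 0.159, adjusted p = 0.0167). WEE1, which phosphorylates and inhibits CDKs, had one of -0.47 (SE 0.155, adjusted p = 0.0301). None of the 8 was called without sgControl replicate 2 or without sgMETTL13 replicate 2, and without sgMETTL13 replicate 1 only 1 was, with none of those that fell.

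Ubiquitin ligases set the lifetime of p21, p27 and the D cyclins. Of 11 ligase subunits for p21 and p27 tested, 1 rose and 2 fell, beside 21.0% of all genes, with a median of 0.12. UBAC1 and RNF123, which form the KPC ligase for p27, read log2 fold changes of -0.77 (SE 0.137, edgeR adjusted p = 0.000234) and -0.59 (SE 0.171, adjusted p = 0.0134), and the RING subunit gene RBX1 rose by 0.44 (SE 0.137, adjusted p = 0.0207). UBAC1 footprints read 71.6 and 76.8 CPM in sgMETTL13 and 119.0 and 134.4 CPM in sgControl, and its call held with any 1 library left out. RNF123 and RBX1 kept theirs only without sgControl replicate 1. Of 6 D cyclin degradation genes 0 rose and 2 fell, with a median of 0.02: the F-box genes FBXO4 at -0.77 (SE 0.162, adjusted p = 0.00118) and FBXO31 at -0.66 (SE 0.198, adjusted p = 0.0177). Without sgMETTL13 replicate 2 both lost their calls, and FBXO31 also without sgControl replicate 2.

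Among 15 transcription factors that act upstream of the set 1 rose and 2 fell, close to the 21.0% of all genes, with a median of 0.07. ZBTB17, the MYC partner MIZ1 that binds the CDKN2B and CDKN1A promoters, read 11.4 and 7.57 CPM in sgMETTL13 and 16.3 and 27.5 CPM in sgControl (log2 fold change -1.18, SE 0.234, edgeR adjusted p = 0.000676). CTNNB1, which encodes beta-catenin, was at 0.46 (SE 0.125, adjusted p = 0.00983), and SMAD3, a mediator of TGF-beta signalling, at -0.44 (SE 0.159, adjusted p = 0.0477). ZBTB17 kept its call with any 1 library left out, and the calls of CTNNB1 and SMAD3 held only without sgControl replicate 1.

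With DESeq2, 5 of the pathway genes named above were not called: CCNA2 (adjusted p = 0.0618), TFDP2 (0.107), WEE1 (0.0696), FBXO31 (0.0672) and SMAD3 (0.112). SMAD3 also missed the threshold without the expression filter (edgeR adjusted p = 0.0631), and DESeq2 gave no adjusted p for E2F2.

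The genes whose pattern was most like that of CDKN1A over the 8 libraries, by the distance between log2 CPM values centred within each assay, were TMEM51 (distance 0.13), CCDC106 (0.24) and PWWP2B (0.25) among 8162 genes compared. Their footprint log2 fold changes were -1.31, -1.28 and -1.21, and their mRNA log2 fold changes -0.31, -0.08 and -0.05. For CCND1 they were SLC7A6OS (0.15), ARPIN (0.16) and PROSER2 (0.17), with footprint log2 fold changes of -0.61, -0.72 and -0.72 and mRNA log2 fold changes of -0.05, -0.01 and -0.03. These genes were picked by their distance over the same libraries, so fold changes near those of CDKN1A and CCND1 follow from the choice. Shared control was not tested.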

How the data were processed

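Raw counts per gene symbol for 8 libraries were deposited by the authors. The submitters' processing notes name cutadapt 1.18, Bowtie 1.2.2, HISAT2 2.0.4, UMI-tools, featureCounts and hg38; their roles, the annotation, the strand setting and the treatment of UMIs and multi-mapping reads are not given in the sources used here. Library groups came from GEO's titles. The 4 libraries of each assay were compared by the quasi-likelihood test of edgeR 4.0.16 in R 4.3.3, after TMM scaling and edgeR's own filter on low counts; footprints per mRNA were the interaction in one fit of all 8 libraries. P-values were adjusted by Benjamini-Hochberg over all genes tested, with a threshold of 0.05. The SE was taken as the absolute log2 fold change divided by the root of the F statistic. Fits were tested on simulated data. DESeq2 1.42.0, RLE factors, no filter, replicate blocks and left-out libraries were alternatives; coding lengths were not used. Members and lists were chosen with earlier results of these data known. Named were all members, METTL13, up to 3 called genes per list by smallest p, and the 3 genes nearest to CDKN1A and CCND1 with a mean of at least 5 CPM in both assays; CCND2 and CDKN2A were added after their values were seen. The results of 1 further gene list are not reported here.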

Additional observations from a re-analysis of the deposited data

How the results depend on the processing

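The 4 members called lower in footprints were 4 under RLE factors, DESeq2, no filter and either replicate block, 3 to 4 with 1 library left out, and 0 in the fit of all 8 libraries. Over all genes, calls higher and lower numbered 958 and 1287; DESeq2 gave 589 and 846, the fit of all 8 libraries 0 and 0, and leaving out 1 library 254 to 1404 higher and 447 to 1614 lower. In mRNA, calls were 0, and 0 to 2359 higher and 0 to 150 lower with 1 library left out. For footprints per mRNA, DESeq2 called 2 lower, and leaving out 1 library gave 0 to 165 higher and 0 to 1360 lower, with 0 to 2 members lower.

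Among the members, signs turned only for values that did not pass in the fit as reported. CDK4 footprints were 0.00711 without the filter, and CDK4 mRNA was -0.000756 under the replicate block. With 1 library left out, footprint log2 fold changes ran from -0.114 to 0.0639 for CDKN1B and from -0.0621 to 0.0363 for CDK4. In mRNA they ran from -0.55 to 0.0981 for CDKN1A, from -0.36 to 0.0136 for CDKN2C, from -0.16 to 0.74 for CDKN2D, from -0.25 to 0.31 for CDK4 and from -0.48 to 0.59 for CDK6. In footprints per mRNA they ran from -0.32 to 0.24 for CDK4 and from -0.80 to 0.27 for CDK6. The causes were not tested.

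The replicate block called 1729 genes in footprints and 0 in mRNA and changed no member's call. Of the pathway genes named, 5 lost their footprint calls under it, with adjusted p of 0.0656 for TFDP2, 0.0666 for WEE1, 0.0558 for RBX1, 0.0991 for SMAD3 and 0.0825 for MCM2, and the 3 genes that fell among the CDK activating kinase and CDC25 genes became 0. Differences between replicates 1 and 2 correlated across genes between the arms at 0.41 in mRNA and -0.20 in footprints. Between footprints and mRNA of the same arm they correlated at 0.17 in sgControl and 0.01 in sgMETTL13. The main fits did not pair the samples by these numbers. In mRNA, replicates of the same number varied partly alike, and why was not tested. Crossing the pairs, added after seeing the data, called 3220 genes in footprints, 1513 of them higher, with the 4 members called lower. Per-kb levels were not run.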
